A study of Rattus norvegicus with 13 samples.

Results

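The Kcnj genes encode the inward rectifier potassium (Kir) channels, and 8 of them were followed in the rat thyroid: Kcnj15, Kcnj16, Kcnj10, Kcnj13, Kcnj8, Kcnj2, Kcnj1 and Kcnj11. They were found on the microarrays by gene name and every probe was kept, which gave 13 of the 45598 probes and 8 of the 36174 gene names on the array. Kcnj15 was chosen by its measured level, which earlier results of these same arrays had placed higher after KI, and the other 7 genes were taken as its relatives. The group difference of Kcnj15 is therefore given as a description with no test, and the questions asked were which relatives were detected and whether they followed it. Total RNA was taken from the thyroids of 13 male Wistar rats, of which 6 were KI-treated and 7 were controls, and hybridised to one-colour Agilent arrays, with each array taken to be 1 animal. Their mothers had received by gavage either potassium iodide (KI) at 1 mg/kg/day or saline, over 8 days that began on gestational day 9, as used for iodine thyroid blocking. The thyroids were taken on postnatal day 51, and no dosing of the progeny after birth is described. The litters are not named in the sources used here, so the p-values measure the spread between these animals and do not allow for littermates.

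Kir channels pass potassium into the cell more readily than out of it, and they hold the resting membrane potential and let potassium recycle across epithelial membranes. Each channel is an assembly of pore subunits, and the subunits encoded by Kcnj15 and Kcnj10 can each combine with the subunit of Kcnj16, which forms little current alone. Kcnj8 and Kcnj11 encode the pores of ATP-sensitive potassium channels, which need a sulfonylurea receptor encoded by Abcc9 or Abcc8. In the thyroid, potassium channels at the basolateral membrane of the follicular cell set the potassium recycling on which the sodium pump, and through it iodide uptake, depends.

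Several of these genes lie next to relatives or partners. In the order of the RefSeq gene table of the rat (GRCr8), 0 protein-coding genes lay between Kcnj16 and Kcnj2 on chromosome 10, Kcnj15 and Kcnj6 on chromosome 11, Kcnj10 and Kcnj9 on chromosome 13, or Kcnj1 and Kcnj5 on chromosome 8. The same was true of Kcnj8 and its receptor gene Abcc9 on chromosome 4 and of Kcnj11 and its receptor gene Abcc8 on chromosome 1. Probes of the same gene differed in detection, so the probe pairs of Kcnj15, Kcnj16, Kcnj2 and Kcnj11 are shown, with the probe of Kcnj10. They are written 5′ to 3′, whole for the probes that start between positions 1125 and 1349 of their transcript and as the first 30 bases for the others. The coordinates are on the rn4 assembly named in the file headers.
Kcnj15 A_44_P792030, chr11:35597000-35597059, plus strand, first 30 bases: gagtcatcaaaacaatggagtgtttaacct
Kcnj15 A_64_P043816, chr11:35593977-35594036, plus strand: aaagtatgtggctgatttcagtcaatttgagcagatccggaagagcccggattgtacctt
Kcnj16 A_42_P833096, chr10:100515861-100515920, plus strand, first 30 bases: caatatcttatctcctaagcacaacagatg
Kcnj16 A_44_P960606, chr10:100517281-100517340, plus strand, first 30 bases: ctttccaagcctggtaaagcataacaatgt
Kcnj10 A_64_P101968, chr13:88370332-88370391, plus strand: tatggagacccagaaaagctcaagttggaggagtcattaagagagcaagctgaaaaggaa
Kcnj2 A_44_P1110463, chr10:100579807-100579866, plus strand, first 30 bases: gttaagctccttatcactctgatgtcaagg
Kcnj2 A_64_P134047, chr10:100576110-100576169, plus strand: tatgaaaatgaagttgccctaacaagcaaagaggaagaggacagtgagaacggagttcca
Kcnj11 A_42_P683614, chr1:96615751-96615810, minus strand, first 30 bases: ggccgaaaagggtcctgtgagtgccataca
Kcnj11 A_64_P045339, chr1:96616585-96616644, minus strand: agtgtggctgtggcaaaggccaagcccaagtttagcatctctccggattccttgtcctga

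The tissue matched its label. Of 13 thyroid follicular genes, 12 were tested and Tg, which encodes thyroglobulin, lay at 10.02 ± 0.13 (SD, n = 6) in KI-treated and 10.28 ± 0.23 (SD, n = 7) in control animals, as log2 level over the array's 75th percentile. Slc26a4, which encodes pendrin, was well above background on 0 arrays. Parathyroid and C cell RNA was present in every sample, with Pth at 8.53 and 8.78 and Calca at 7.08 and 6.94 on that scale in the KI-treated and control group. Skeletal muscle RNA varied widely, and the summed linear level of its 10 tested markers ran from 6.45 to 113 times the 75th percentile in the KI-treated and from 27.9 to 219 times in the control group. Of 7 lymphocyte genes 2 were tested, and their summed level was 9.23 in KI-treated animal 1 and at most 0.52 in the others. Control 4 and control 6 stood apart. In these samples 11.1% and 8.37% of 25650 probes differed by more than 1 log2 unit from the mean of the other controls, against 2.07% to 4.76% in the other 11 samples when compared within their own group. Their summed thyroid markers were 1878 and 1891 times the 75th percentile, against 1223 to 1551 in the other 11, and their summed endothelial markers were 151 and 146 times, against 78.4 to 114. Parathyroid sums were highest there too, at 588 and 665 against 340 to 458. So were sums of the epithelial potassium transport genes described below, at 358 and 407 against 251 to 316. C cell sums went the other way, at 136 and 166 against 178 to 311. The 75th percentile of the gene spots was lowest on these 2 arrays, at 1489 and 1253 against 1579 to 2447. Its part in these sums was not tested. Each group difference of the tested Kcnj genes is therefore given with and without these 2 animals, a choice made after the data had been seen. The same holds for each Pearson correlation of their probes with Kcnj15. Spearman correlations, the r between the 2 Kcnj16 probes and the differences between probes within an array are given for all 13 animals only.

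Detection split the 8 genes into 6 that were measured and 2 that were not. A probe is called detected on an array where the scanner software flagged it as well above background, and probes detected on at least 6 of 13 arrays were tested. Kcnj16, Kcnj13 and Kcnj8 were detected on 13 of 13 arrays by every probe they had, and Kcnj15, Kcnj2 and Kcnj11 on 13 of 13 arrays by 1 of their 2 probes. Kcnj10, which encodes the partner of Kcnj16 in glia and distal kidney tubule, was detected on 0 arrays. Kcnj1, which encodes the potassium-secreting channel of the kidney tubule (ROMK), was detected on 0 arrays by either of its 2 probes. For these 2 genes the arrays give only that the signal was not well above background in both groups, and no fold is given.

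**Figure D1:**
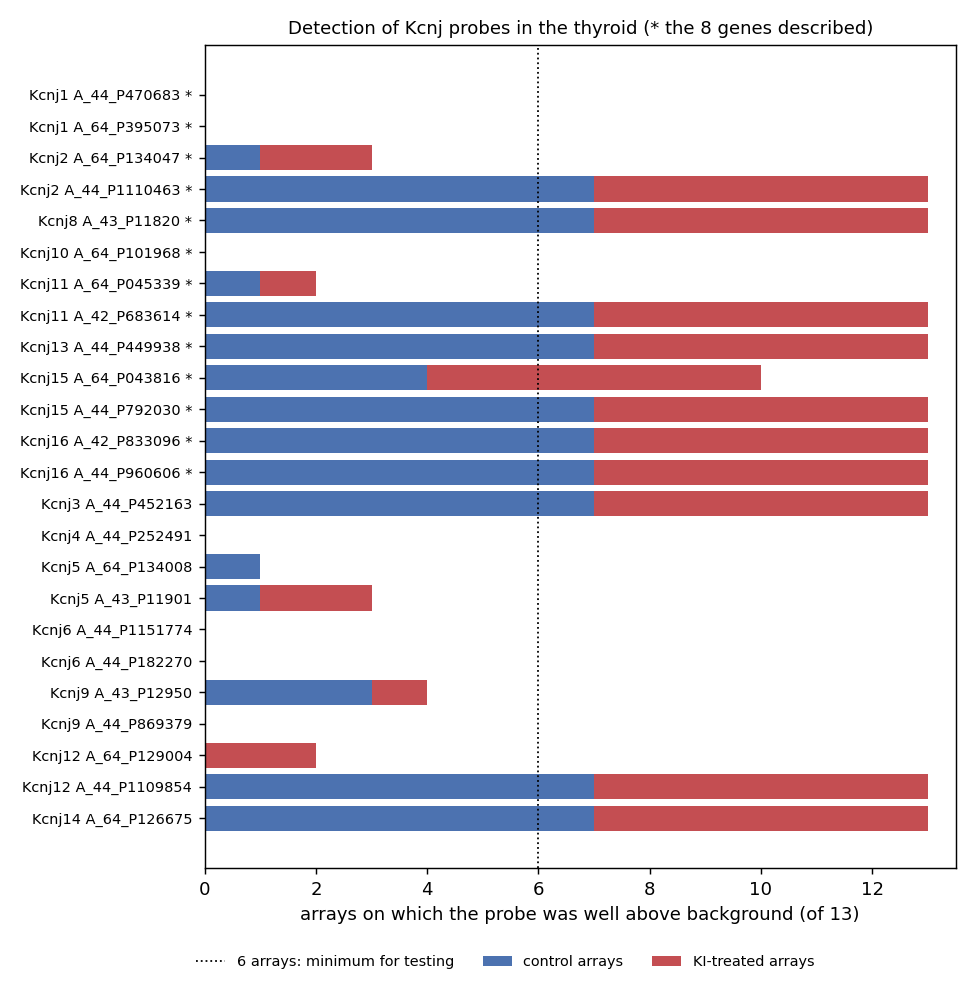
Number of arrays, of 13, on which each Kcnj probe was well above background, with control arrays in blue and KI-treated arrays in red. Stars mark the 13 probes of the 8 genes described, of which 7 were detected on all 13 arrays and 3 on 0 arrays, and the dotted line marks the 6 arrays needed for testing.

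In each of the 3 genes whose probe pairs disagreed, the probe that started farther along its transcript was the one detected throughout. For Kcnj15, the probe starting at position 6558 was detected on 13 arrays and the probe starting at position 1171 on 10, which were 6 of 6 KI-treated and 4 of 7 control arrays. For Kcnj2, the probe starting at position 8159 was detected on 13 arrays and the one at 1125 on 3. For Kcnj11, the probe starting at position 2183 was detected on 13 arrays and the one at 1349 on 2. The 2 probes of a gene lay 3023 bases apart in Kcnj15, 3697 in Kcnj2 and 834 in Kcnj11 on the genome. The probe of Kcnj15 detected on 10 arrays was the tested probe nearest to the minimum of 6, and the Kcnj2 probe detected on 3 arrays was the nearest below it. The levels of different probes are not set against each other, since each probe has its own affinity.

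Kcnj15, which encodes a channel of epithelial cells in kidney, lung and stomach (Kir4.2), had the higher levels in KI-treated animals, and this difference is the one that chose it. At the fully detected probe, A_44_P792030, the log2 level relative to the 75th percentile ran from 1.80 over a median of 1.96 to 2.20 in the 6 KI-treated animals and from 1.21 over a median of 1.43 to 1.82 in the 7 control animals. Every KI-treated animal lay above the control median, and the groups overlapped only through control 1 at 1.82 and KI-treated animal 3 at 1.80. The means were 1.97 ± 0.14 (SD, n = 6) and 1.47 ± 0.22 (SD, n = 7), a difference of 0.50 (SE 0.12) on the log2 scale or 1.42-fold. Across all tested probes the median difference between the groups was -0.08 and 39.3% lay above 0. The arrays came from 6 slides, of which 5 held both groups, and KI-treated animals were higher within each of the 5, by 0.15 to 0.73. Within the 3 scan days the difference ran from 0.30 to 0.72. Without controls 4 and 6 it was 0.56.

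The second Kcnj15 probe, A_64_P043816, was dim and pointed the same way with more scatter. Its log2 levels ran from -3.57 over -3.18 to -2.61 in the KI-treated and from -5.26 over -3.81 to -3.09 in the control group. The groups overlapped, and control 4 lay lowest by more than 1 log2 unit. The probe was not well above background in controls 4, 5 and 7, at -5.26, -3.86 and -4.03, while it was on all 6 KI-treated arrays, which alone met the minimum of 6. The group difference therefore sets detected KI-treated levels against control levels that were in part not detected. The means were -3.14 ± 0.41 (SD, n = 6) and -3.84 ± 0.71 (SD, n = 7), a difference of 0.70 (SE 0.30) or 1.63-fold. Leaving out control 4 gave 0.47, leaving out controls 4 and 6 gave 0.54, and normexp background correction gave 0.14, so the size at this probe depended on 1 animal and on how dim signal was treated. Within slides the KI-treated animals were higher in 4 of 5, with differences from -0.22 to 2.45.

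**Figure D2:**
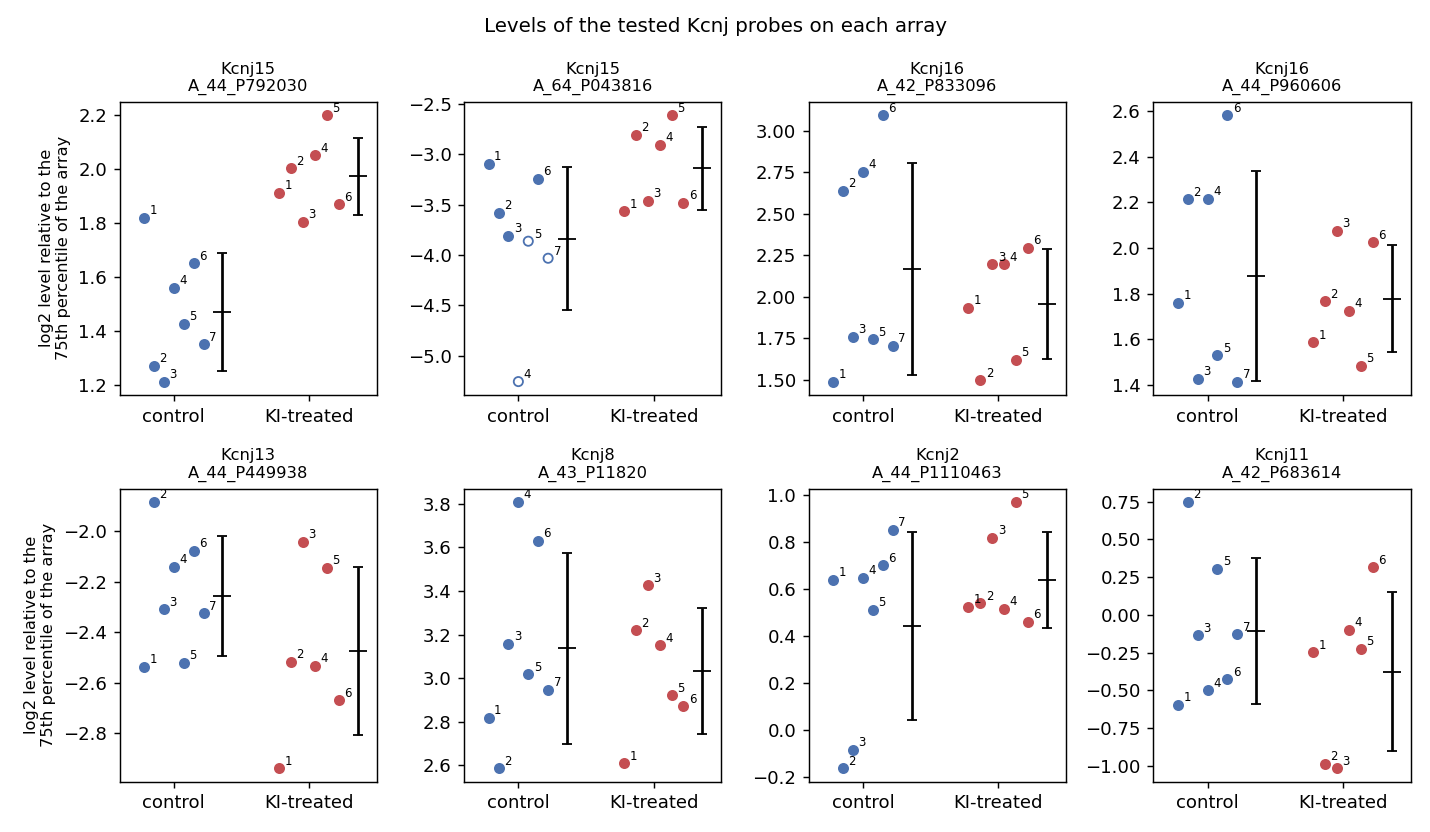
Log2 level over the array's 75th percentile for the 8 tested probes, with each point 1 animal numbered within its group, open circles where the probe was not well above background, and the mean with its SD beside each group. The KI-treated animals sit at 1.80 to 2.20 at Kcnj15 A_44_P792030 against 1.21 to 1.82 in the controls, while the groups lie across each other at Kcnj16, Kcnj13, Kcnj8, Kcnj2 and Kcnj11. Each panel has its own vertical axis.

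The group differences of the relatives ran from -0.27 to 0.19, against 0.50 and 0.70 at the 2 Kcnj15 probes, the second of which was detected on only 4 of 7 control arrays. Of the 6 tested probes of Kcnj16, Kcnj13, Kcnj8, Kcnj2 and Kcnj11, 0 passed an adjusted p of 0.05 in limma with Benjamini-Hochberg adjustment over all probes, where the background was 0% of 25717 probes, so a relative with a difference as large as that of Kcnj15 would not be told apart by this count. Their intervals are set beside the 0.50 of Kcnj15 as a description only. That value chose the gene and has its own SE of 0.12, which is not allowed for here. With all 13 animals the 95% interval of the difference ended below 0.50 at 5 of the 6 probes, at 0.12 to 0.35, and reached 0.57 for Kcnj2. Without controls 4 and 6, where Kcnj15 differed by 0.56, the upper ends ran from 0.20 to 0.46 at 4 probes and were 0.56 at Kcnj16 A_42_P833096 and 0.70 at Kcnj2, so the interval at these 2 probes still held a difference of that size. At an unadjusted p of 0.05 the count was also 0 of 6, against 12.7% of all tested probes (1469 or 5.71% higher after KI and 1802 or 7.01% lower, a split that became 1823 higher and 1432 lower after quantile normalization). The groups overlapped at all 6 probes, where 0.581% of 25650 probes did not overlap. Within each array, the difference between Kcnj15 A_44_P792030 and the other probe was larger in the KI-treated group by 0.31 for Kcnj2 and by 0.60 to 0.77 for the others, values that carry the difference that chose Kcnj15 and were not tested.

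Kcnj16 encodes the subunit (Kir5.1) that joins the Kcnj15 channel in epithelia and so was the nearest relative by function. At A_42_P833096 its log2 level ran from 1.49 over 2.06 to 2.29 in the KI-treated and from 1.49 over 1.76 to 3.09 in the control group. Controls 2, 4 and 6 lay above every KI-treated animal, at 2.64, 2.75 and 3.09, while the other 4 controls lay among or below them. The means were 1.95 ± 0.33 (SD, n = 6) and 2.17 ± 0.64 (SD, n = 7), and the difference of -0.21 (SE 0.27, 95% interval -0.78 to 0.35) was within the spread (limma adjusted p = 0.674, exact two-sided permutation p = 0.470 over 1716 splits). The second probe, A_44_P960606, ran from 1.49 over 1.75 to 2.08 in the KI-treated and from 1.42 over 1.76 to 2.58 in the control group. Its means were 1.78 ± 0.23 (SD, n = 6) and 1.88 ± 0.46 (SD, n = 7), with a difference of -0.10 (SE 0.20, 95% interval -0.52 to 0.32, limma adjusted p = 0.790, exact permutation p = 0.636). The same 3 controls were highest at both probes, which varied together within groups (r = 0.87 over 13 arrays, from the same RNA). Controls 2, 4 and 6 also had the highest summed thyroid follicular markers, at 1551, 1878 and 1891 times the 75th percentile against 1223 to 1434 in the other 10 animals. The parts of follicular content and of the low 75th percentile of controls 4 and 6 in the Kcnj16 levels were not tested. The sign of the Kcnj16 difference rested on the 2 animals that stood apart, since without controls 4 and 6 it was 0.09 and 0.11 at the 2 probes (limma adjusted p = 0.931 and 0.880), and with array weights it was 0.08 and 0.13. In bulk RNA, fewer cells of a type and less RNA per cell cannot be told apart.

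Kcnj13 encodes a channel of weak rectification (Kir7.1) that sits beside the sodium pump in several epithelia and is known from the thyroid follicular cell. Its log2 level ran from -2.94 over -2.53 to -2.04 in the KI-treated and from -2.54 over -2.31 to -1.88 in the control group. The groups overlapped over most of their range, with KI-treated animal 1 lowest and control 2 highest. The means were -2.47 ± 0.33 (SD, n = 6) and -2.26 ± 0.24 (SD, n = 7), a difference of -0.22 (SE 0.16, 95% interval -0.56 to 0.12) that was not beyond the spread (limma adjusted p = 0.508, exact permutation p = 0.202). It was -0.16 without controls 4 and 6 (limma adjusted p = 0.816). Within slides it ran from -0.92 to 0.39, with the KI-treated animals higher in 2 of 5.

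Kcnj8 encodes the pore of the ATP-sensitive channel of vascular smooth muscle and pericytes (Kir6.1). Its log2 level ran from 2.61 over 3.04 to 3.43 in the KI-treated and from 2.59 over 3.02 to 3.81 in the control group. Controls 4 and 6 lay highest, at 3.81 and 3.63, and the other 11 animals shared one range. The means were 3.03 ± 0.29 (SD, n = 6) and 3.14 ± 0.44 (SD, n = 7), a difference of -0.10 (SE 0.20, 95% interval -0.53 to 0.32, limma adjusted p = 0.782, exact permutation p = 0.622). Its sign changed to 0.13 without controls 4 and 6 (limma adjusted p = 0.838) and to 0.02 in the deposited log2 values. The summed linear level of 6 pericyte and smooth muscle markers, of which 6 were tested and 0 passed an unadjusted p of 0.05, ran from 19.0 to 27.7 times the 75th percentile in the KI-treated and from 16.5 to 28.1 in the control group. It was 26.3 in control 4 and 28.1 in control 6, inside the range of the others in the first case and just above it in the second. KI-treated animals 3 and 2, next highest at Kcnj8 with 3.43 and 3.22, had sums of 27.7 and 27.2. Control 2, lowest at Kcnj8 with 2.59, had the lowest sum of 16.5, while KI-treated animal 1 had 23.9 at a Kcnj8 level of 2.61. The summed level of 6 endothelial markers was highest in controls 4 and 6, at 151 and 146 times against 78.4 to 114 in the other 11. The parts of vessel content and of the low 75th percentile of these 2 arrays in the Kcnj8 levels were not tested.

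Kcnj2 encodes the strong rectifier of heart, skeletal muscle and endothelium (Kir2.1), and was the only relative whose difference was positive with all 13 animals, although those of Kcnj16 and Kcnj8 became positive under the settings named above. At the detected probe, A_44_P1110463, its log2 level ran from 0.46 over 0.53 to 0.97 in the KI-treated and from -0.16 over 0.64 to 0.85 in the control group. Controls 2 and 3 lay apart below the rest, at -0.16 and -0.08, and only 2 of 6 KI-treated animals lay above the control median. The means were 0.64 ± 0.21 (SD, n = 6) and 0.44 ± 0.40 (SD, n = 7), a difference of 0.19 (SE 0.18, 95% interval -0.18 to 0.57) that was within the spread (limma adjusted p = 0.573, exact permutation p = 0.321). It was 0.29 without controls 4 and 6 (limma adjusted p = 0.666) and 0.09 without control 2. Kcnj2 lies next to Kcnj16, with their nearest probes 58829 bases apart, and the signs of their differences were opposite with all 13 animals.

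Kcnj11 encodes the pore of the ATP-sensitive channel of endocrine cells and muscle (Kir6.2). At A_42_P683614 its log2 level ran from -1.02 over -0.24 to 0.32 in the KI-treated and from -0.60 over -0.13 to 0.75 in the control group. KI-treated animals 2 and 3 lay lowest, at -0.99 and -1.02, and control 2 highest. The means were -0.38 ± 0.53 (SD, n = 6) and -0.11 ± 0.48 (SD, n = 7), a difference of -0.27 (SE 0.26, 95% interval -0.82 to 0.28, limma adjusted p = 0.586, exact permutation p = 0.352). It was -0.42 without controls 4 and 6 (limma adjusted p = 0.679) and -0.13 without control 2. The summed linear level of the skeletal muscle markers was 113 and 64.8 times the 75th percentile in KI-treated animals 2 and 3. It was 75.8 in control 2, 219 in control 5 and 20.2 in KI-treated animal 6, whose Kcnj11 levels were 0.75, 0.31 and 0.32. The summed linear level of the C cell markers was 178 and 203 times in KI-treated animals 2 and 3. It was 298 in control 2, 229 in control 5 and 311 in KI-treated animal 6. Controls 3 and 7 had C cell sums of 192 and 290, with Kcnj11 at -0.13 in both. The parts of muscle and C cell content in these levels were not tested.

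**Figure D3:**
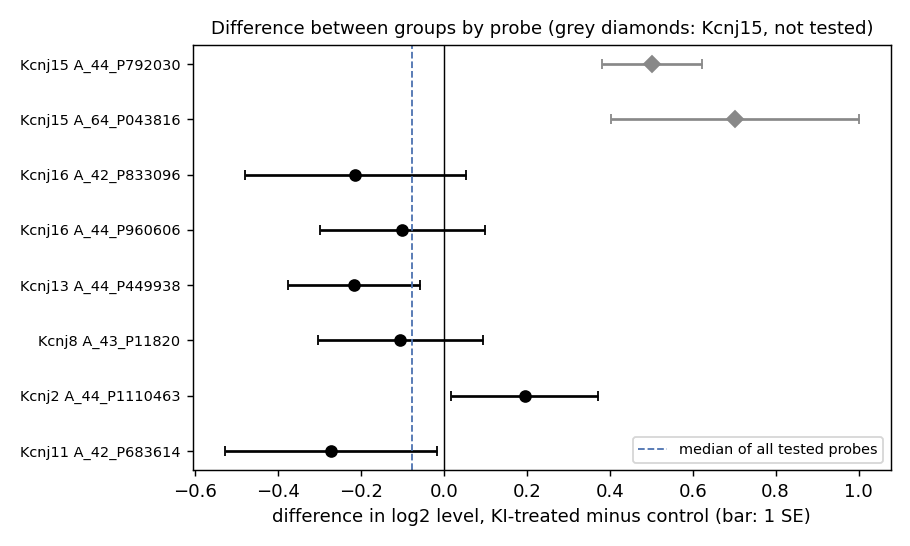
Log2 level of KI-treated minus control animals, with bars of 1 SE, for the 8 tested probes. The grey diamonds are the 2 Kcnj15 probes at 0.50 and 0.70, whose difference chose the gene and was not tested, the 6 probes of the relatives lie between -0.27 and 0.19, and the dashed line is the median of all 25717 tested probes at -0.08.

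The slides gave no common pattern among the relatives. The KI-treated animals were higher within 2 of 5 and 1 of 5 slides at the 2 Kcnj16 probes, 3 of 5 for Kcnj8, 4 of 5 for Kcnj2 and 1 of 5 for Kcnj11. Controls 4 and 6 were on slides 1 and 2, and it was there that Kcnj16 A_42_P833096 showed its lowest differences, at -1.26 and -0.90. Within the 3 scan days the differences ran from 0.0041 to 0.41 for Kcnj2, from -0.37 to -0.15 for Kcnj13 and from -0.54 to -0.11 for Kcnj11. One slide held only control 7 and gave no difference.

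**Figure D4:**
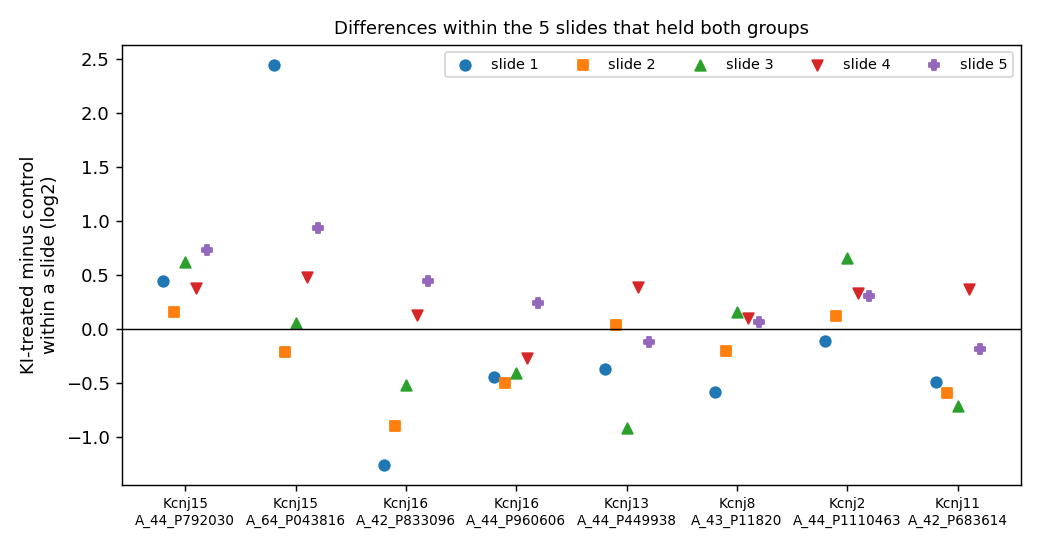
Difference between the KI-treated and control animals within each of the 5 slides that held both groups (log2), by probe, with 1 symbol per slide. Kcnj15 A_44_P792030 lies above 0 on all 5 slides, at 0.15 to 0.73, and no probe of a relative does so. The slide differences of Kcnj15 are parts of the difference that chose it, so this contrast is a description and no test.

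Whether a relative rose and fell with Kcnj15 between animals of the same group was asked after the group means had been subtracted, which leaves out the difference that chose Kcnj15. Over 13 arrays, 0 of 25649 probes correlated with A_44_P792030 at an adjusted permutation p of 0.05 (0%). The smallest p these permutations can give is 1e-05, which for 1 probe alone adjusts to 0.256, so the adjusted values could not single out a relative. At the unadjusted level 621 (2.42%) passed a p of 0.05, among which were 0 of the 7 probes of the Kcnj genes described. Kcnj2 came nearest, with Pearson's r = 0.59 (permutation p = 0.0724, adjusted 0.999) and Spearman's rho = 0.57 (permutation p = 0.0718, adjusted 0.961). The 2 samples farthest from the median of Kcnj15 were controls 2 and 3, at 1.27 and 1.21. That median was taken over all 13 samples before group means were subtracted, so the group difference had a part in picking them. They were also the lowest at Kcnj2, at -0.16 and -0.08. Without these 2 samples r was 0.14, so the size of r depended on them. It was 0.53 without controls 4 and 6, 0.57 with slide means subtracted and 0.46 to 0.75 when any 1 sample was left out. For Kcnj16 r was -0.07 and 0.13 at its 2 probes (permutation p = 0.846 and 0.721, adjusted 0.999 for both), with rho of -0.03 and 0.18 (permutation p = 0.945 and 0.616). Without the 2 farthest samples these r were -0.11 and 0.08. Without controls 4 and 6 they were -0.57 and -0.23, and with slide means subtracted 0.47 and 0.52, so no sign could be given for the relation of Kcnj16 to Kcnj15.

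The remaining relatives had smaller r or r below 0. Kcnj8 had r = 0.18 (permutation p = 0.614) and rho = 0.26 (permutation p = 0.437), and r was -0.03 without the 2 farthest samples and -0.17 without controls 4 and 6. Kcnj13 had r = -0.09 (permutation p = 0.762) and rho = -0.13 (permutation p = 0.674), and r was 0.09 without them and -0.21 without controls 4 and 6. Kcnj11 had r = -0.36 (permutation p = 0.236) and rho = -0.23 (permutation p = 0.462), and r was -0.21 without them and -0.27 without controls 4 and 6. All adjusted permutation p of these 3 genes were 0.999 for r. The second Kcnj15 probe itself reached only r = 0.38 (permutation p = 0.273, adjusted 0.999) and rho = 0.46 (permutation p = 0.132), with r = 0.58 without the 2 farthest samples and 0.79 without controls 4 and 6. These 7 relations of Kcnj probes were adjusted together with all others tested.

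**Figure D5:**
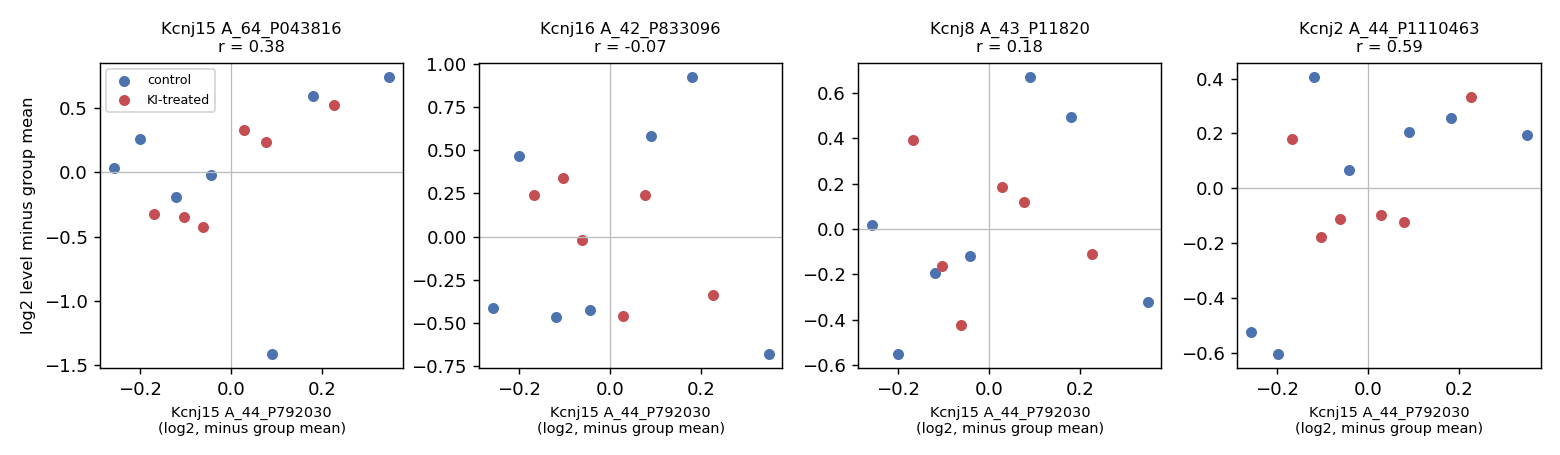
Log2 level minus the mean of the animal's own group at 4 probes, against the same for Kcnj15 A_44_P792030, with each point 1 of the 13 animals. The within-group r is 0.38 for the second Kcnj15 probe, where control 4 lies far below, -0.07 for Kcnj16, 0.18 for Kcnj8 and 0.59 for Kcnj2.

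The genes whose brightest probe varied most like Kcnj15 within groups, among those detected on all 13 arrays, were Tmem63c (r = 0.85), Fmo2 (r = 0.83), Grk4 (r = 0.82), Agmo (r = 0.81) and Plekhg6 (r = 0.81), each over the same 13 samples. These are the highest among such genes and are given as a description. Only Agmo, which encodes an ether lipid monooxygenase, was also higher in the KI-treated group by an amount close to that of Kcnj15, at 0.46, while the other 4 differed by -0.16 to 0.07.

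The other 7 Kcnj genes and the partners and regulators of Kir channels were counted in the same way. Of the 7 other Kcnj genes, 3 were tested and 0 passed the adjusted p, while Kcnj4 and Kcnj6 were detected on 0 arrays and Kcnj5 and Kcnj9 on at most 3 and 4. Kcnj3, which encodes a G protein-gated channel subunit (Kir3.1), was the 1 gene of these with an unadjusted p under 0.05, on the lower side, where the background was 7.01% of probes. Its means were -2.95 ± 0.26 (SD, n = 6) and -2.23 ± 0.44 (SD, n = 7), a difference of -0.72 (SE 0.20, limma adjusted p = 0.342), which was -0.81 without controls 4 and 6. Kcnj12 and Kcnj14, the other tested genes, differed by -0.26 and 0.32 (limma adjusted p = 0.598 and 0.433), and by -0.10 and 0.12 without controls 4 and 6.

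The receptors of the ATP-sensitive channels gave 0 of 2 past the unadjusted or adjusted p, against 12.7% and 0% of all probes. Abcc8, the partner of Kcnj11, differed by -0.27 (limma adjusted p = 0.540), and Abcc9, the partner of Kcnj8, by -0.03 (limma adjusted p = 0.918). Without controls 4 and 6 these were -0.29 and -0.03.

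Among 21 genes of other epithelial potassium transport, 19 were tested, 0 passed the adjusted p and 2 were lower at an unadjusted p of 0.05, against 7.01% of all probes. The median difference was -0.16 over the list and -0.10 over the brightest probe of every gene, and both were -0.01 without controls 4 and 6. Kcnq1, a potassium channel that supports iodide uptake in the thyrocyte, lay at 0.78 ± 0.49 (SD, n = 6) after KI and 1.38 ± 0.34 (SD, n = 7) in controls, a difference of -0.61 (SE 0.22, limma adjusted p = 0.358). Without controls 4 and 6 it was -0.56 (limma adjusted p = 0.524).

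Of 17 regulators of Kir channels 17 were tested, 0 passed the adjusted p, and 1 was higher and 1 lower at an unadjusted p of 0.05, near the background of 5.71% and 7.01%. Their median difference was -0.08, and -0.03 without controls 4 and 6. Pip5k1b, which makes the membrane lipid that Kir channels need to open, differed by 0.60 (SE 0.21, limma adjusted p = 0.354), and this fell to 0.34 without controls 4 and 6. The kinase gene Wnk4 differed by -0.86 (limma adjusted p = 0.353) and by -0.67 without controls 4 and 6. Casr, the calcium-sensing receptor that regulates the Kcnj15 channel, differed by 0.04 (limma adjusted p = 0.922), and by 0.27 without controls 4 and 6 (limma adjusted p = 0.698).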

How the data were processed

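Thyroid RNA of 13 rats was measured on 1-colour arrays of 62976 features. The scanner files deposited by the authors hold spot intensity values from Agilent Feature Extraction (10.7.3.1), which subtracts background and does not scale between arrays. The deposited log2 table of the same arrays, whose normalization is not given in the sources used here, served as an alternative. No table held columns of other samples (0).

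Groups and replicate numbers came from the sample labels. Control and outlier spots were removed, spots of a probe were averaged as log2 intensity, and the 75th percentile of each array, taken over averaged probes, was subtracted. The percentile over single gene spots is given as an alternative. A probe counted as well above background where at least 50% of its spots carried that flag. The 25717 probes so flagged on at least 6 arrays were tested with limma (version 3.58.1, R 4.3.3) with Benjamini-Hochberg adjustment, and single probes with an exact two-sided permutation test. Correlations used 100000 permutations within groups (Python 3.11.15), and 67 tested probes that lacked a value on some array were left out of them. Of 58717 gene spots per array, 34840 to 41050 were well above background and 0 were saturated. The number of arrays limits the precision. The method was tested on simulated data. There, limma with adjustment did not recover changes about as large as that of Kcnj15 A_44_P792030.

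The members and lists were chosen with earlier results of these data known. Named are all 8 members by every probe, and list genes with an unadjusted p under 0.05 or else the 2 with the largest difference. Also named are the 5 genes with the highest positive r with Kcnj15, among protein-coding RefSeq genes without LOC or RGD names. Kcnj12, Kcnj14 and Casr were named after their values were seen. One further gene that this rule selects is not reported here. A gene of a list was represented by its brightest tested probe. Alternatives were other scalings, background corrections, filters, variance models, blocks by slide, scan day or replicate number, the t-test of the methods, and leaving out each array.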

Additional observations from a re-analysis of the deposited data

How the results depend on the processing

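For the 6 tested probes of the relatives, 0 passed the adjusted p under any alternative run. The Kcnj15 differences stayed positive under the 14 alternatives run for A_44_P792030 (0.47 to 0.59) and the 13 for A_64_P043816 (0.14 to 0.78). The latter probe could not be fitted where detection on all arrays was required. With 1 array at a time left out, the differences at the 2 probes were 0.46 to 0.56 and 0.47 to 0.83. These values are a description only, since they rework the difference that chose Kcnj15. A_64_P043816 was detected on 6 of 6 KI-treated and 4 of 7 control arrays. Over all probes, 0 passed the adjusted p except with array weights (55) and when 1 array was left out (0 to 1, with 1 probe without control 1 or without control 2). Differences that changed sign were those of Kcnj16 with array weights (0.083 and 0.13) and without controls 4 and 6 (0.089 and 0.11), and of Kcnj8 in the deposited log2 values (0.025) and without controls 4 and 6 (0.13). With 1 array left out, the difference ran from -0.18 to 0.017 at Kcnj16 A_44_P960606, above 0 only without control 6, and from -0.20 to 0.0068 at Kcnj8, above 0 only without control 4. For the others it kept its sign, from -0.33 to -0.06 at Kcnj16 A_42_P833096, -0.30 to -0.13 at Kcnj13, 0.09 to 0.26 at Kcnj2 and -0.41 to -0.13 at Kcnj11. Correlations with Kcnj15 that changed sign were, with slide means subtracted, Kcnj11 (0.12) and Kcnj16 A_42_P833096 (0.47), after normexp Kcnj13 (0.17), after quantile normalization Kcnj16 A_44_P960606 (-0.092) and Kcnj8 (-0.11), in the deposited log2 values Kcnj16 A_44_P960606 (-0.0080) and Kcnj8 (-0.061), without the 2 farthest samples Kcnj13 (0.091) and Kcnj8 (-0.031), and without controls 4 and 6 Kcnj16 A_44_P960606 (-0.23) and Kcnj8 (-0.17). With 1 array left out they ran from -0.28 to 0.14 for Kcnj13 and from -0.33 to 0.26 and -0.083 to 0.26 for Kcnj16. The cause of these changes was not tested. With the percentile taken over gene spots, the median of all probes moved from -0.08 to 0.00 and Kcnj15 A_44_P792030 to 0.58. Leaving out controls 4 and 6, and averaging the spots of a probe before the percentile was taken, were chosen after seeing the data. No pairing by replicate number was seen, since deviations of same-numbered animals from their group means correlated at only -0.11 to 0.07 over all probes. Such values cannot exclude a shared litter or handling. A replicate block over the 6 shared numbers gave 0.48 and 0.67 for Kcnj15, with 0 probes past the adjusted p. The methods' t-test passed 3142 probes unadjusted and 0 after Benjamini-Hochberg adjustment. Probes not well above background (Kcnj10, Kcnj1) gave no comparison.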
